A study of Mus musculus with 12 samples.

Results

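The Hox genes of the newborn mouse kidney were taken as every gene symbol in the count files made of Hox, a cluster letter a to d and a number, which gave 39 genes of 24062 symbols. Of these, 11 belonged to the Hoxa cluster on chromosome 6, 10 to Hoxb on chromosome 11, 9 to Hoxc on chromosome 15 and 9 to Hoxd on chromosome 2. RNA of 12 whole kidneys from mouse pups at postnatal day 3 was sequenced, in 4 groups of 3 kidneys. LIN28B Wt1 kidneys (C57BL/6, labelled LIN28OE) carried a doxycycline-inducible human LIN28B transgene driven through Wt1, switched on by a brief doxycycline pulse before birth, and were compared with kidneys labelled WT of the same strain. let-7 KO kidneys (labelled let7KO, strain mixed CD1 and C57BL/6) lacked the microRNA genes let-7a-1, let-7d and let-7f-1 constitutively, with the other let-7 genes left in place, and were compared with their own WT littermates. Beyond WT, the labels give no transgenes or doxycycline exposure for the LIN28B controls. In each group 2 kidneys came from litter 1 and the other from litter 2.

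Hox genes encode homeodomain transcription factors that lie in 4 clusters, in an order along the chromosome that matches the body level at which each is used, and members with the same number in different clusters are called paralogues. In the kidney, the 11 paralogues act in the metanephric mesenchyme with Eya1 and Pax2 to switch on Six2 and Gdnf, and mice without them form no kidney. The 10 paralogues are known for their part in the kidney stroma, Hoxb7 is the standard marker of the ureteric epithelium, and the 13 paralogues are used further back, in the genital and distal limb regions. LIN28B is an RNA-binding protein that blocks the maturation of let-7 microRNAs, which in turn lower the output of mRNAs that carry matching sites.

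Depth was high: the kidneys had between 39926235 and 61872736 counts on genes, and Hox genes took 0.0866% to 0.119% of them. At that depth a count of 0 allows up to 3 counts, which is 0.0485 to 0.0751 CPM (counts scaled to the total of each library) depending on the kidney. Counting intervals and floors cover counting error only. The mouse Lin28b row, to which reads of the human transgene could also align, held 232, 224 and 71 counts in the LIN28B Wt1 kidneys and 0, 18 and 33 in their controls. Rows of the 3 deleted let-7 genes held 0 counts in all 3 let-7 KO kidneys, but at most 35 in a WT kidney, and in WT kidney 1 they were at 0 as well, so this check is weak.

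The highest Hox levels in the newborn kidney were, apart from Hoxb2, in the middle and later part of the clusters. Dividing CPM by the length of the gene's exons, Hoxd11 (62.4 ± 9.91 CPM per kilobase, SD, n = 12 kidneys), Hoxd8 (61.7 ± 10.2), Hoxa10 (55.2 ± 7.92) and Hoxb7 (53.6 ± 7.15) had the highest levels. Over all 12 kidneys the ranges of these 4 overlapped, but within groups some lay apart. Hoxd8 averaged 65.7 ± 1.24 in LIN28B controls and 72.2 ± 3.97 in let-7 WT kidneys, against 48.3 ± 6.04 and 52.7 ± 3.81 for Hoxb7. In LIN28B Wt1 kidneys Hoxd8 averaged 49.2 and Hoxb7 53.7, and in let-7 KO kidneys both averaged 59.7. Next came Hoxd9 at 39.9 ± 5.52 and Hoxb2 at 37.1 ± 5.32, whose ranges overlapped, then Hoxd10 at 27.9 ± 6.80. Hoxb6 (19.3 ± 1.87), Hoxa9 (17.9 ± 2.15) and Hoxa11 (17.2 ± 3.26) followed, again with overlapping ranges, and Hoxc10 reached 13.97 ± 3.58. The place of Hoxd11 depends on the length used: with all of its annotated exons, 4212 bases in place of 1111, its level was 16.5 and it ranked 9 of the 39. The same change took Hoxb2 to 17.3 and Hoxa9 to 10.3. Hoxb2 is less certain too, because 27.3% of its annotated exon bases also lie in the antisense RNA Hoxb3os and the library kit does not mark strand.

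**Figure D1:**
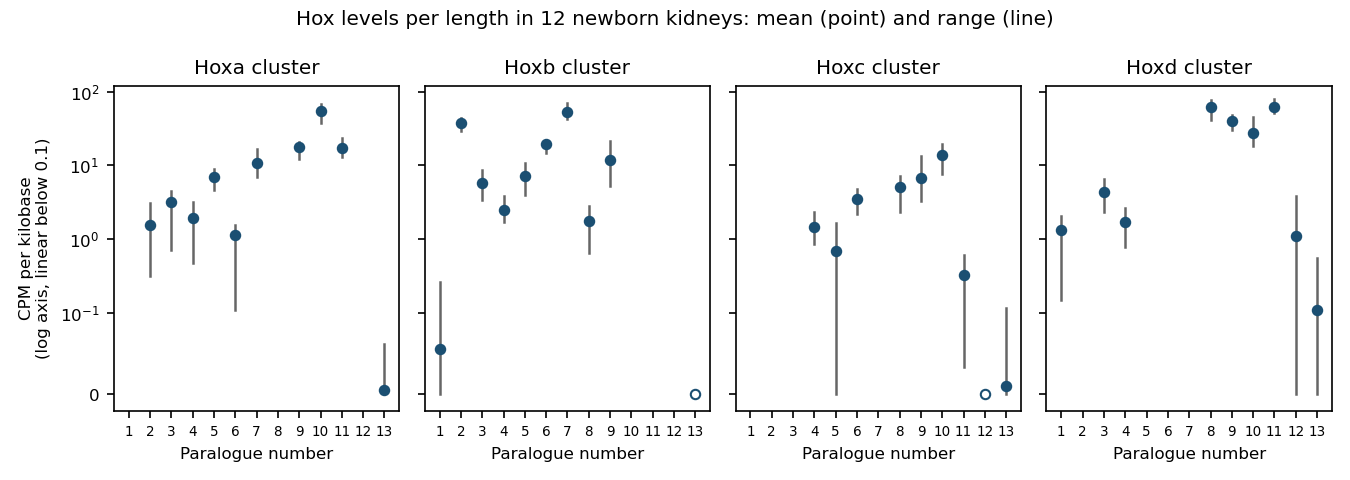
Level of Hox genes per kilobase of exon, by cluster (panels) and paralogue number (horizontal axis). Points are means over the 12 kidneys, lines run from the lowest to the highest kidney, and open points are genes with 0 counts in every kidney. Levels peak at Hoxa10 (55.2), Hoxb7 (53.6), Hoxc10 (13.97) and, in Hoxd, at Hoxd8 and Hoxd11 (61.7 and 62.4), and drop sharply after paralogue 11, or after 10 in Hoxc.

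Beyond the 11 paralogues levels were low. Hoxb13 and Hoxc12 had 0 counts in all 12 kidneys, which allows at most 0.0751 CPM in the shallowest. Hoxa13 and Hoxc13 had 8 and 15 counts, each in the LIN28B control kidney 3 alone. Hoxd12 had a mean of 3.34 CPM per kilobase in LIN28B Wt1 kidneys and of 0.0178 to 0.498 in the other groups, and Hoxd13 of 0.390 and of 0 to 0.0363, against 62.4 over all kidneys for their neighbour Hoxd11. At the front end of its cluster Hoxb1 was at 0.0558 CPM per kilobase, while Hoxb2 beside it was at 37.1.

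Each member was tested, mutant against control, by edgeR's quasi-likelihood method fitted to all genes of a model and with Benjamini-Hochberg adjustment over all of them. After the filter on low counts, 34 members were tested in the LIN28B model and 33 in the let-7 model. Hoxa13, Hoxb1, Hoxb13, Hoxc12 and Hoxc13 were tested in neither, and Hoxd13 was not tested in the let-7 model, where all 6 kidneys had 0 counts. In LIN28B Wt1 kidneys 1 of the 34, Hoxd12, passed an adjusted p of 0.05, where 1.23% of all 15793 genes did, and Hoxd12 was also the only member with an unadjusted p below 0.01, where 7.33% of all genes passed. At an unadjusted p below 0.05 there were 7 of 34 members, Hoxa11, Hoxb9, Hoxc9, Hoxc10, Hoxd8, Hoxd10 and Hoxd12, where 18% of all genes passed. The let-7 KO comparison gave 0 called members of 33 (0.0194% of all genes were called), 0 at an unadjusted p below 0.01 (2.73% of all genes) and 1 at an unadjusted p below 0.05, again Hoxd12 (10.8% of all genes). DESeq2 called 0 members there too, but gave 25 of the 33, Hoxd12 among them, no adjusted p. The labels do not say that the kidneys of a group came from different pups, so p-values measure only the spread between these samples. For a single gene an exact two-sided permutation test of 3 against 3 kidneys cannot go below p = 0.1.

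**Figure D2:**
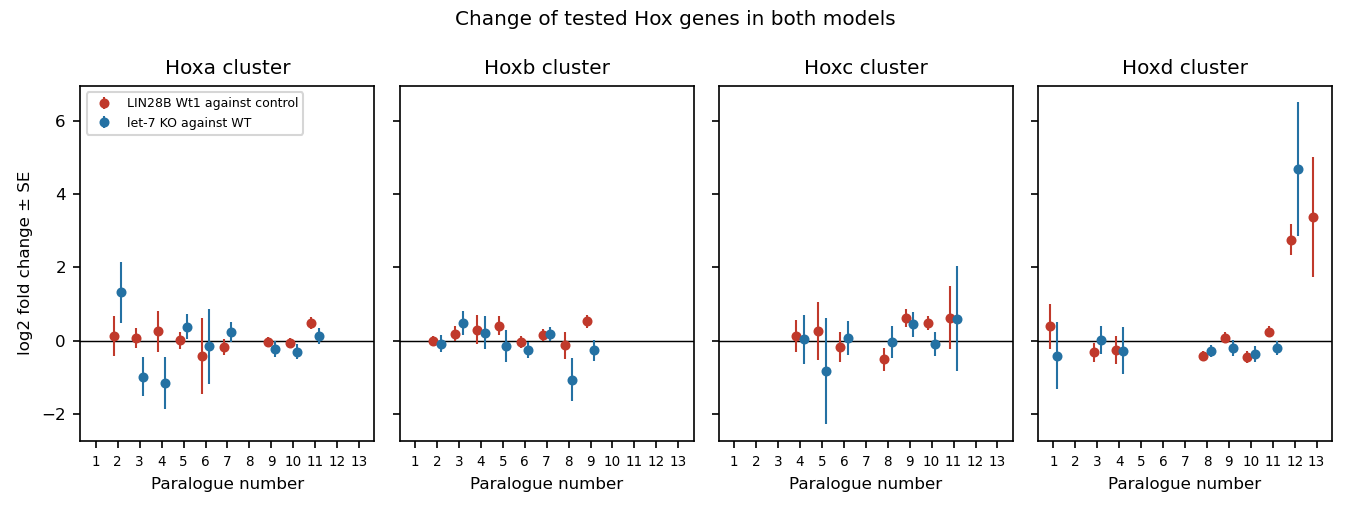
Log2 fold change (mutant over control, vertical axis) of tested Hox genes by cluster and paralogue number, with bars of 1 SE from edgeR. LIN28B Wt1 against control is in red and let-7 KO against WT in blue. Most points lie within 1 log2 unit of 0, and Hoxd12 stands at 2.75 in LIN28B Wt1 kidneys and 4.68 in let-7 KO kidneys, the latter with an SE of 1.83.

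Hoxd12, which follows Hoxd13 at the end of the Hoxd cluster (chr2:74675013-74677705, plus strand, GRCm38), rose in LIN28B Wt1 kidneys. Control kidneys had 1.37, 1.54 and 0.880 CPM (81, 67 and 46 counts), and LIN28B Wt1 kidneys had 7.39, 8.21 and 9.82 CPM (453, 440 and 590 counts). Every mutant kidney was higher than every control kidney. The fold change was 6.72 (log2 2.75 ± 0.42 SE, 95% interval 1.81 to 3.69, edgeR quasi-likelihood adjusted p = 0.0185). Within litters the ratio of means was 5.37 in litter 1 (2 against 2 kidneys) and 11.2 in litter 2 (1 against 1). The size held in every fit that tested the gene, with a log2 fold change of 2.56 to 2.91, but the call was lost in 5 of the 6 fits that left out 1 kidney, with adjusted p between 0.0507 (without LIN28B Wt1 kidney 2) and 0.119 (without control kidney 1), and in a single fit of all 12 kidneys (adjusted p = 0.187).

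In the let-7 model Hoxd12 was nearly off in WT kidneys, with 0, 0 and 8 counts, and had 82, 104 and 14 counts in the let-7 KO kidneys. In CPM these were 0, 0 and 0.135 against 1.36, 1.91 and 0.385, so the groups did not overlap. The fitted log2 fold change of 4.68 ± 1.83 SE rests on 8 WT counts and did not pass the test (adjusted p = 0.402). Hoxd12 entered this fit through the KO kidneys alone, so a higher level there was built into its being tested. Means in WT and KO kidneys were 0 and 1.64 CPM in litter 1, and the single kidneys of litter 2 had 0.135 and 0.385 CPM. Without WT kidney 3, the only WT kidney with a count, the fitted log2 value was 9.01 (adjusted p = 0.726). KO kidney 3, the shallowest library of the series, was the lowest of the 3.

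The baseline of Hoxd12 also differed between the sets of control kidneys: 0.880 to 1.54 CPM in LIN28B controls and 0 to 0.135 CPM in let-7 WT. That difference, log2 -4.71 ± 1.11 SE, had an edgeR adjusted p of 0.0814, and strain and experiment cannot be told apart in it. Without let-7 WT kidney 3 it was called (log2 -9.09, adjusted p = 0.0101). In the same 12-kidney fit, 0 of 35 members were called between control groups, where 0.627% of all genes were called and 3 members (Hoxd12, Hoxb3 and Hoxc9, all lower in let-7 WT) had an unadjusted p below 0.05, as did 9.58% of all genes. DESeq2 called 1, Hoxd12. The let-7 KO range of 0.385 to 1.91 CPM includes that of the LIN28B controls. The change in Hoxd12 did not differ detectably between the models (difference of log2 fold changes -1.94 ± 1.34 SE, 95% interval -4.81 to 0.94, adjusted p = 0.904), but that value rests on let-7 WT kidney 3, without which it was -6.32 (adjusted p = 0.748).

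Hoxd13, the last gene of the cluster (chr2:74668310-74671599, plus strand), is outside the rule that selected genes for kidney-by-kidney values and was picked after its values were seen. It had 16, 0 and 0 counts in LIN28B controls and 58, 31 and 83 in LIN28B Wt1 kidneys, or 0.270, 0 and 0 against 0.947, 0.579 and 1.38 CPM. The groups did not overlap, but the log2 fold change of 3.37 ± 1.64 SE did not pass the test (adjusted p = 0.322), and the gene entered the fit through the mutant kidneys. No let-7 kidney had a Hoxd13 count. Evx2, the gene next to Hoxd13 outside the cluster, had 0 counts in all 12 kidneys, and so did Hottip, the non-coding RNA beyond Hoxa13.

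**Figure D3:**
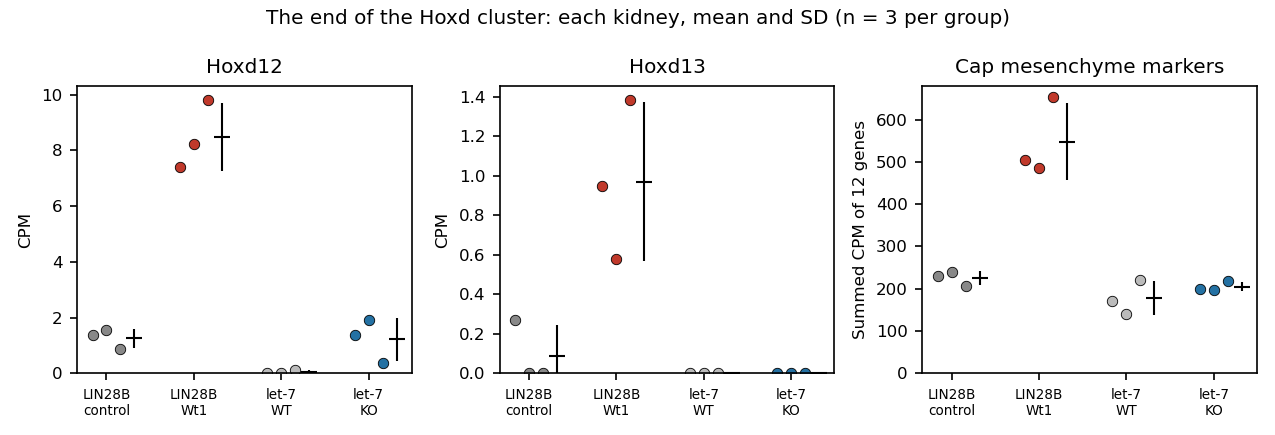
Hoxd12 and Hoxd13 in CPM, and the summed CPM of 12 cap mesenchyme marker genes, in each kidney (points) with the group mean and SD (bars, n = 3). LIN28B Wt1 kidneys stand above all others in each panel, at 7.39 to 9.82 CPM for Hoxd12 and 487 to 654 summed CPM for the markers, while let-7 KO kidneys lie above let-7 WT in Hoxd12 and overlap them in the marker sum, although 10 of the 11 tested markers had positive log2 differences there.

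The starts of the neighbouring Hoxd12 and Hoxd13 genes are shown because these 2 lay higher together in LIN28B Wt1 kidneys. The stretches run from 250 bases before to 50 bases after the RefSeq gene start in GRCm38.p6, at chr2:74674763-74675062 and chr2:74667975-74668274, both on the plus strand, with capitals marking CCAAT and TATAAA on either strand.
Hoxd12: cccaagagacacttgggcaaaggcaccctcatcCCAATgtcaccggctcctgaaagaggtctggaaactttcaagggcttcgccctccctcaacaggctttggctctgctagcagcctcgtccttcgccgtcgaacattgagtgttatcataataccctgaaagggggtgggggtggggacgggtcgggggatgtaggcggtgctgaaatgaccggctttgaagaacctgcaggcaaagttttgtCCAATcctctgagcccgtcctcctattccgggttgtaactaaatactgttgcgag
Hoxd13: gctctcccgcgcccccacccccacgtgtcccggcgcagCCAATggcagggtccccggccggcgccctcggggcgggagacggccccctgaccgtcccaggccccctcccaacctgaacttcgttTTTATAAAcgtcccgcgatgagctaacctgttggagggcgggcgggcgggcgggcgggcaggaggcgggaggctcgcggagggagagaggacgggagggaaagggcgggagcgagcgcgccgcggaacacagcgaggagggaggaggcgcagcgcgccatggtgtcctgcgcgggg
CCAAT occurs in both and in 37.4% of the 32851 promoters of this length in the table, and TATAAA, which is in the Hoxd13 stretch only, occurs in 13.6%. Among the 24 Hox promoters in the table, from 22 of the genes, 15 hold CCAAT and 4 hold TATAAA. The Hox promoters had a median of 14.5 CpG dinucleotides against 7 over all promoters. A match is a description of the letters and not of a bound site.

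Cap mesenchyme markers, which label the nephron progenitors, moved with Hoxd12 in the LIN28B model. Of 12 such genes 11 were tested and 8 rose: Six2 (log2 fold change 3.35), Cited1 (3.33), Traf1 (2.96), Gdnf (2.16), Eya1 (2.04), Osr1 (1.63), Crym (1.55) and Rspo1 (1.31). Their summed level was 487 to 654 CPM in LIN28B Wt1 kidneys against 207 to 240 in controls, and 198 to 217 CPM in let-7 KO against 140 to 221 in let-7 WT. In the let-7 model none was called, but 10 of the 11 had positive log2 differences, among them Gdnf (2.20), Eya1 (1.65), Cited1 (1.12) and Six2 (0.94), with a median of 0.63 against -0.02 over all genes. The exception was Itga8 (-0.32), whose 2599 to 10825 counts per kidney weigh heavily in the sum. Proximal tubule markers went the other way, with 4 of 10 called lower, Slc34a1, Slc22a8 and Fbp1 among them, and a summed level of 1882 to 2458 against 4151 to 4969 CPM. In the let-7 model their sum was 4565 to 6128 CPM in KO and 6589 to 7538 CPM in WT kidneys, which did not overlap either. No marker of either list was called in the let-7 model. The part of these shifts in cell makeup in the Hox values was not tested, and in whole-kidney RNA a change in the number of cells of a type and a change in RNA per cell cannot be told apart.

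The 11 paralogues, whose proteins act with Eya1 and Pax2 in the mesenchyme, all lay higher in LIN28B Wt1 kidneys without passing the test. Hoxa11 (chr6:52242106-52245810, minus strand) had 39.4, 36.02 and 33.97 CPM in controls and 48.9, 48.6 and 54.3 CPM in LIN28B Wt1 kidneys, so the groups did not overlap. Its log2 difference of 0.48 ± 0.16 SE had an edgeR adjusted p of 0.155. With a covariate for each kidney's dependence of counts on gene length, 3 members were called, Hoxa11 (adjusted p = 0.0425), Hoxd8 and Hoxd12, among 1928 genes in all. That covariate was built from each kidney's deviation from its own group mean in these same data. It left the Hoxa11 log2 difference at 0.48, while calls over all genes rose from 194, so the Hoxa11 call is not independent evidence. Hoxa11 shares 800 of its 2287 exon bases with the antisense RNA Hoxa11os, whose own log2 difference was 0.66 ± 0.23 SE (adjusted p = 0.164), and without strand their reads cannot be told apart. In the let-7 model Hoxa11 had 29.97, 33.2 and 36.7 CPM in WT and 39.5, 33.6 and 36.7 CPM in KO kidneys, which overlap (log2 0.13 ± 0.21 SE).

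Hoxd11 (chr2:74679557-74687016, plus strand) had 63.4, 73.3 and 73.9 CPM in LIN28B controls against 76.9, 84.8 and 87.5 CPM in LIN28B Wt1 kidneys. The let-7 pair had 61.7, 78.1 and 59.4 CPM in WT and 58.3, 58.6 and 56.5 CPM in KO kidneys. Neither pair overlapped, yet neither difference passed the test (log2 0.25 ± 0.14 SE, adjusted p = 0.415, and log2 -0.21 ± 0.19 SE, adjusted p = 0.731), and the let-7 value shrank to -0.07 without WT kidney 2. The difference between these changes, 0.43 ± 0.21 on the log2 scale, had an adjusted p of 0.819 in the edgeR interaction test. Hoxc11 (chr15:102954427-102957708, plus strand) was scarce, with 22, 36 and 62 counts in LIN28B controls, 76, 66 and 72 in LIN28B Wt1, 4, 22 and 11 in let-7 WT and 20, 10 and 18 in let-7 KO kidneys. Its intervals were wide (log2 0.63, 95% interval -1.30 to 2.56, and 0.60, interval -2.55 to 3.75), so moderate changes were not detectable in this test. In litter 2 the LIN28B Wt1 kidney had 1.198 CPM of Hoxc11 and the control 1.187 CPM, a ratio of 1.01. These were the lowest mutant and the highest control value, so the groups nearly touched. The ratio in litter 1 was 2.06.

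**Figure D4:**
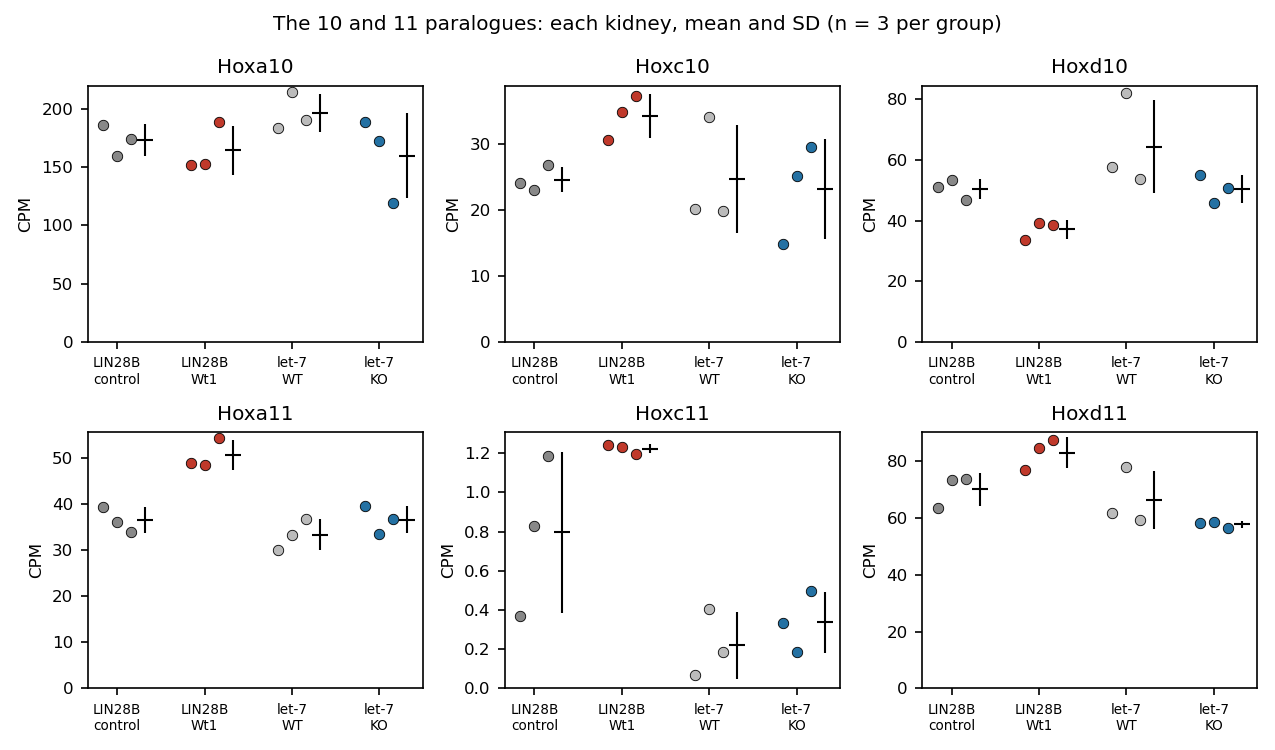
CPM of the 10 paralogues (top) and 11 paralogues (bottom) in each kidney, with the group mean and SD (bars, n = 3) and vertical axes from 0. Hoxa11, Hoxc10, Hoxc11 and Hoxd11 sit higher and Hoxd10 lower in all LIN28B Wt1 kidneys than in their controls, and in the let-7 pair the groups overlap for all but Hoxd11. For Hoxc11 the LIN28B groups nearly touch, at 1.198 CPM in the lowest LIN28B Wt1 kidney and 1.187 CPM in the highest control.

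Summed over the 11 paralogues, LIN28B Wt1 kidneys had 127 to 143 CPM and controls 103 to 110 CPM, while let-7 KO had 92.3 to 98.1 and let-7 WT 91.7 to 112 CPM. The sums follow Hoxd11 and Hoxa11, which hold nearly all of the counts. The first pair of ranges did not overlap and the second did.

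The 10 paralogues did not move as a group in LIN28B Wt1 kidneys. Their sum there was 216 to 265 CPM, against 236 to 261 CPM in controls. In the let-7 model all 3 had negative log2 differences (median -0.30), and 0 were called. Their KO sum was 199 to 258 CPM and their WT sum 261 to 331 CPM, which narrowly did not overlap. Hoxa10 (chr6:52231197-52240854, minus strand) had 186, 159 and 174 CPM in LIN28B controls and 152, 153 and 189 CPM in LIN28B Wt1 kidneys. Its log2 difference of -0.07 ± 0.14 SE had a 95% interval of -0.39 to 0.25, that is, 0.764-fold to 1.19-fold. Its let-7 values were 184, 215 and 191 CPM in WT and 189, 172 and 119 CPM in KO kidneys (log2 -0.30 ± 0.20 SE, adjusted p = 0.616), and the difference shrank to -0.12 without KO kidney 3.

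Hoxc10 (chr15:102966796-102971893, plus strand) lay higher in LIN28B Wt1 kidneys, at 30.6, 34.9 and 37.3 CPM against 24.0, 23.0 and 26.7 CPM. Hoxd10 (chr2:74691924-74695105, plus strand) lay lower there, at 33.6, 39.1 and 38.5 CPM against 51.0, 53.4 and 46.8 CPM. Neither set of groups overlapped, and neither difference was called: log2 0.48 ± 0.18 SE (adjusted p = 0.195) for Hoxc10 and -0.44 ± 0.16 SE (adjusted p = 0.184) for Hoxd10. Within litters Hoxc10 was 1.39-fold higher in both, and Hoxd10 was 0.697 and 0.822 of the control mean. For the let-7 pair Hoxc10 had 20.1, 34.1 and 19.8 CPM in WT and 14.8, 25.1 and 29.6 CPM in KO kidneys. Hoxd10 had 57.6, 82.0 and 53.7 CPM in WT and 55.0, 45.8 and 50.7 CPM in KO kidneys, and the groups of both genes overlapped. For Hoxc10 the let-7 ratio was 0.737 in litter 1 and 1.49 in litter 2, and its log2 difference of -0.10 turned to 0.22 without WT kidney 2 and 0.14 without KO kidney 1.

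Over all tested members, the groups of the LIN28B model did not overlap for 10: 8 higher and 2 lower in LIN28B Wt1 kidneys. The 8 were Hoxa11, Hoxb9, Hoxc9, Hoxc10, Hoxc11, Hoxd11, Hoxd12 and Hoxd13, which is 23.5% of the 34 tested against 10.3% of all genes tested. The 2 lower ones were Hoxd8 and Hoxd10, 5.88% against 13.6%. All 8 higher members had paralogue numbers from 9 to 13, a range read off these same data. Numbers 9, 10, 11, 12 and 13 had 4, 3, 3, 1 and 1 tested members, of which 2, 1, 3, 1 and 1 were separated higher. Hoxc11 was separated only by 1.198 against 1.187 CPM. Hoxd13 here, and Hoxd12 in the let-7 model, passed the filter only through the group where they are high, so the counts are descriptions. Hoxb9 and Hoxc9 had log2 differences of 0.53 and 0.63, and Hoxd8 of -0.41, with adjusted p of 0.155, 0.212 and 0.167. With let-7 lost, 2 members were higher in all KO kidneys, Hoxa2 (log2 1.32) and Hoxd12, or 6.06% against 7.81% of all genes. The 4 that were lower in all KO kidneys were Hoxa4 (-1.16), Hoxb8 (-1.06), Hoxd8 (-0.28) and Hoxd11 (-0.21), or 12.1% against 8.98%. Hoxd8 was lower in all mutant kidneys of both models.

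By cluster, the median log2 difference in LIN28B Wt1 kidneys was 0.04 in Hoxa (10 tested), 0.17 in Hoxb (8), 0.26 in Hoxc (7) and 0.09 in Hoxd (9), against -0.02 over all genes. The corresponding let-7 KO medians were -0.19, -0.11, 0.04 and -0.24, against -0.02 over all genes. The Hoxd cluster had a summed level of 404 to 422 CPM in LIN28B controls and 348 to 402 in LIN28B Wt1 kidneys, and 396 to 479 in let-7 WT and 349 to 380 in let-7 KO. Both mutant groups had ranges below those of their controls, and Hoxd8 alone averaged 135 against 180 CPM in the LIN28B model and 164 against 198 CPM in the let-7 model. The Hoxc sum, at 71.5 to 88.0 CPM in LIN28B Wt1 and 58.3 to 73.7 CPM in control kidneys, overlapped. Over all 39 genes the sum was 1028 to 1123 CPM in LIN28B Wt1 and 1011 to 1092 in control kidneys, and 951 to 960 in let-7 KO and 1004 to 1166 in let-7 WT kidneys.

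By paralogue number, members 1 to 8 gave no separated group in the LIN28B model except Hoxd8. The 8 paralogues all had negative values (Hoxb8 -0.12, Hoxc8 -0.51 and Hoxd8 -0.41) and so did the 6 paralogues (Hoxa6 -0.42, Hoxb6 -0.04 and Hoxc6 -0.18), none of them called. Of the 9 paralogues 3 of 4 were positive, with a median of 0.31, the exception being Hoxa9 at -0.04. The 5 paralogues were all positive (Hoxa5 0.007, Hoxb5 0.41 and Hoxc5 0.26), and 0 were called. The 4 paralogues had a median of 0.19 and the 3 paralogues of 0.08. In let-7 KO kidneys the 8 paralogues were all negative as well (Hoxb8 -1.06, Hoxc8 -0.03 and Hoxd8 -0.28), with 0 called. The change differed between the models for 0 of 35 members at an adjusted p of 0.05, where 0.00602% of all genes differed, and for 1 at an unadjusted p below 0.05, Hoxb9 (0.77 ± 0.34 SE, adjusted p = 0.770), where 6.27% of all genes passed. DESeq2 also called 0 for this difference.

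The 3 deleted microRNAs are shown because they share the seed, bases 2 to 8, through which let-7 binds its targets. Capitals mark the seed, and the sequences are RefSeq's, in GRCm38.p6, from chr13:48538239-48538260, chr13:48536078-48536099 and chr13:48537889-48537910 on the minus strand.
let-7a-5p: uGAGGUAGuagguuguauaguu
let-7d-5p: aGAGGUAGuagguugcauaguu
let-7f-5p: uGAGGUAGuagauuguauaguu
The DNA match to that seed, CTACCTC, was searched on the mRNA strand, using for each gene its longest 3′ UTR in the annotation. It occurred in 6 of the 39 Hox genes, or 15.4%, and in 1894 of 21112 genes, or 8.97%. Hoxa11, Hoxb1, Hoxb4, Hoxc11 and Hoxd1 held 1 match each. Their 22-base stretches, with the match in capitals, are given on the mRNA strand.
Hoxa11: cctacctgggttttCTACCTCc
Hoxb1: ctttgtatctgcaaCTACCTCa
Hoxb4: aaccaggccccttcCTACCTCt
Hoxc11: gcaaagtccaaatcCTACCTCc
Hoxd1: ttaaagtggcgctcCTACCTCt
They lie at chr6:52242684-52242705, chr11:96368206-96368227, chr11:96321521-96321542, chr15:102957251-102957272 and chr2:74764867-74764888 in GRCm38. The Hoxb1 stretch ends in an A after the match, the form known to be bound best. A second form, TACCTCA, a match 1 base shorter followed by an A, was searched too. It occurred in 3 of the 39 Hox genes and in 2054 of the 21112 genes, or 9.73%. Hoxa9 held it without CTACCTC.

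None of the 5 tested genes with a CTACCTC match, the only form counted as a match below, was called in either model. Their log2 differences in LIN28B Wt1 kidneys were all above 0, with 0.63 for Hoxc11, 0.48 for Hoxa11, 0.40 for Hoxd1 and 0.30 for Hoxb4, and had a median of 0.48 against 0.08 for the 29 tested Hox genes without a match. In let-7 KO kidneys Hoxc11, Hoxa11, Hoxd1 and Hoxb4 gave 0.60, 0.13, -0.41 and 0.22, and 3 of the 5 were above 0, with a median of 0.13 against -0.15 for those without. Over all genes the median in the LIN28B model was 0.011 with a match (1474 tested) and -0.026 without (12750 tested). In the let-7 model it was -0.068 with a match (1462 tested) and -0.029 without (12582 tested), the opposite order from that among Hox genes. Hoxd12 and Hoxd13 hold no match in 1653 and 1463 bases of 3′ UTR, and Hoxa10, Hoxc10, Hoxd8 and Hoxd10 hold none either. The annotated 3′ UTR of Hoxd11 is only 30 bases long. No match says only that these letters are absent from the annotated UTR.

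Of the genes known to work with Hox11 proteins in the kidney mesenchyme or to be switched on by them, 4 of 7 tested rose in LIN28B Wt1 kidneys: Six2, Eya1, Gdnf and Osr1, the same 4 that count among the cap mesenchyme markers above. Pax2 (log2 0.34), Sall1 (0.35) and Itga8 (-0.09) were not called. None of the 7 was called in the let-7 model, and Gdnf had the lowest p (log2 2.20 ± 0.62 SE, adjusted p = 0.362). Among 9 genes of the Pbx, Meis and Pknox families, the homeodomain partners that bind DNA with Hox proteins, Pbx2 rose 2.16-fold in LIN28B Wt1 kidneys (log2 1.11 ± 0.17 SE, edgeR adjusted p = 0.0199). Pbx4 (log2 1.70, adjusted p = 0.0754) and Meis2 (0.61, adjusted p = 0.0958) were not called, 7 of the 9 had positive values, and 0 were called in the let-7 model.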

How the data were processed

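Libraries were prepared from the RNA of single whole kidneys with a SMARTer Ultra Low kit, which does not mark strand, and sequenced on an Illumina HiSeq instrument. The authors deposited raw read counts per gene symbol, 1 file per kidney. Per the labels' processing notes, the tools were cutadapt, TopHat2 2.0.9, Bowtie2, SAMtools 0.1.19 and HTSeq with build mm10, the same assembly as GRCm38. The annotation behind the counts and the use of strand are not given in the sources used here. Groups and litters came from the labels. The members, gene lists and tests were chosen with earlier results of these data known.

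The counts were tested in R 4.3.3 with edgeR 4.0.16 (TMM factors, default expression filter, quasi-likelihood test, Benjamini-Hochberg over all genes tested), with the 6 kidneys of each model fitted alone. The difference between models and between control groups came from 1 fit of all 12 kidneys. SE is the absolute log2 fold change over the square root of F. CPM values use TMM factors over 12 kidneys. Alternatives were DESeq2 1.42.0, RLE and upper-quartile factors, no filter, at least 1 CPM in every kidney, a litter block, a length covariate, leaving out each kidney, and other gene lengths. Lengths and UTRs came from GENCODE M21 basic transcripts, with lengths for 94.4% of the symbols. Scripts were tested on simulated data. Values were given kidney by kidney for the 10 and 11 paralogues and for members at an adjusted p below 0.05 in any comparison or an unadjusted p below 0.01 in either model, and for Hoxd13. Values of some single genes are not reported or plotted here, and counts and sums over a list include them.

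The litter numbers in the labels pair kidneys across groups. After the mean of each group was subtracted, mutant and control kidneys correlated at -0.0382 within litters and 0.0477 between litters in the LIN28B model, and at -0.00889 and 0.0114 in the let-7 model. Because the subtraction makes the deviations of a group cancel, the values of a model are nearly tied to opposite signs and are not separate measurements. No pair of kidneys in a group agreed within sampling noise (chi-square per gene 31.6 or more), so none was treated as a library deposited again, which does not show that they came from different pups.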

Additional observations from a re-analysis of the deposited data

How the results depend on the processing

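The call of Hoxd12 depended on the processing. The number of called members in the LIN28B model was 1 with DESeq2, RLE factors, upper-quartile factors, no filter and the litter block, in each case Hoxd12. It was 3 with the length covariate, 0 with at least 1 CPM in every kidney, a filter that leaves Hoxd12 out, and 0 in 1 fit of all 12 kidneys, and it ranged from 0 to 1 when each kidney was left out in turn. The number at an unadjusted p below 0.01 was 3 with DESeq2, 4 with the length covariate, 0 with the stricter filter, 0 in the 12-kidney fit, and 1 to 2 without single kidneys. The let-7 model gave 0 called members in any alternative (DESeq2 gave 25 of 33 no adjusted p), and 1 reached an unadjusted p below 0.01 with DESeq2 and in the 12-kidney fit, with a range of 0 to 1 without single kidneys. Between control groups 1 member, Hoxd12, was called with DESeq2 and with the length covariate, and 0 to 1 without single kidneys. For the difference between models, 0 members were called in any alternative. The block on litter, which pairs kidneys as the labels do, gave 1 called member in the LIN28B model and 0 in the let-7 model, and changed no call of a member. Of 228 alternative values of single named genes, 212 kept direction and call, 12 did not, and 4 from DESeq2 had no adjusted p. Hoxc10 in the let-7 model reversed without single kidneys, ranging from -0.31 to 0.22. The causes were not tested. Over all genes, the 194 calls of the LIN28B model became 1264 with DESeq2, 401 with the stricter filter, 1928 with the length covariate, 95 with the litter block and 21 to 2074 without single kidneys, and the 3 calls of the let-7 model became 235 with DESeq2, 222 with the length covariate, 5 with the stricter filter and in the 12-kidney fit, 0 with the litter block and 0 to 5 without single kidneys. The 104 calls between control groups became 397 with DESeq2, 356 with the length covariate, 52 with the litter block and 31 to 137 without single kidneys, and the 1 call for the difference between models became 101, 14, 0 and 1 to 6, and 3 with either filter alternative. RLE factors moved the median log2 difference of all genes in the LIN28B model from -0.016 to 0.0040. Hoxd12 in let-7 kidneys, Hoxd13 and Hoxc11 rest on few counts.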

Other observations

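Genes that set or keep the chromatin state of Hox clusters were measured in the same kidneys. Of 19 such genes 17 were tested and 0 were called in either model by edgeR's quasi-likelihood test. In LIN28B Wt1 kidneys 3 of the 17 had an unadjusted p below 0.01, where 7.33% of all genes passed. All 3 had positive values: Cbx2 (log2 0.99, adjusted p = 0.0897), a reader subunit of Polycomb complex 1, Ezh2 (0.59, adjusted p = 0.109), the methyltransferase of Polycomb complex 2, and Kdm6b (0.80, adjusted p = 0.101), a demethylase that removes the mark Ezh2 sets. Their median over the 17 was 0.28, against -0.02 over all genes, and -0.06 in the let-7 model. Cdx2 and Cdx4, activators of Hox clusters in the early embryo, had 0 counts in all kidneys.

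Genes next to the clusters gave 1 call among 8 tested: Cbx5, a heterochromatin protein near the Hoxc cluster, which was 1.70-fold higher in LIN28B Wt1 kidneys (adjusted p = 0.0339). Mtx2, beside the Hoxd cluster, had a log2 difference of 0.13. The non-coding genes of the clusters gave 0 calls among 5 tested, with Hoxa11os at the lowest p (adjusted p = 0.164). Hotair, a non-coding RNA of the Hoxc cluster, had 105 counts in let-7 KO kidney 2 and 0 in the other 5 let-7 kidneys, while the LIN28B controls had 30, 10 and 35 counts and the LIN28B Wt1 kidneys 21, 5 and 31.

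Markers of other kidney cells were measured in the same kidneys. Of the nephrogenic stroma list 1 of 8 tested genes was called, Sfrp1, which was lower (log2 -0.77). That list was split, 4 higher and 4 lower with a median of 0.06, and Foxd1 (0.70), Ntn1 (0.60) and Dlk1 (1.14) had positive values. Of the ureteric tip and collecting duct list 1 of 12 was called, Etv4, which was higher (1.06). There 6 were higher and 6 lower, with a median of 0.02, and Calb1 was at -0.73 (edgeR adjusted p = 0.0573). The renal vesicle list (8 tested, median -0.52), podocyte list (6, -0.05), endothelium list (6, -0.60), immune list (5, -0.25) and red cell list (3, 0.16) gave 0 calls. Yet all 6 endothelium genes were at negative values, 5 of them at an unadjusted p below 0.01, where 7.33% of all genes passed. Their sum was 527 to 568 CPM in LIN28B Wt1 against 777 to 828 CPM in control kidneys. The nephrogenic stroma sum, 1061 to 1214 against 1266 to 1364 CPM, the renal vesicle sum, 477 to 530 against 605 to 633 CPM, and the immune sum, 86.0 to 96.95 against 116 to 119 CPM, did not overlap either. Sfrp1 and Penk (log2 -0.14), with 11970 to 37841 and 28891 to 67819 counts per kidney, weigh heavily in the stroma sum. The part of these lists in the Hox values was not tested. Adrenal, skeletal muscle and gonad lists, tissue that could be carried along in dissection, had summed levels of at most 4.91, 6.42 and 2 CPM in any kidney, with 0 calls among the 1, 2 and 0 genes tested in the LIN28B model. The adrenal sum was higher in every LIN28B Wt1 kidney (3.56 to 4.91 CPM) than in every control kidney (1.73 to 2.82 CPM), as Hoxd12 was, and its part in the Hoxd12 value was not tested. No gene of any list was called in the let-7 model. The 3 globin genes listed had 0 counts in all kidneys.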
